A study of Mus musculus with 14 samples.

Results

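Nuclear factor κB (NF-κB) is a family of transcription factors that waits in the cytoplasm and enters the nucleus when a cell senses cytokines, microbial products or damage. The transcripts of 10 genes of this system were measured in mouse caudal intervertebral discs. The 10 genes were 5 that encode the DNA-binding subunits (Nfkb1, Nfkb2, Rel, Rela and Relb), 3 that encode the classical inhibitors IκBα, IκBβ and IκBε (Nfkbia, Nfkbib and Nfkbie), Nfkbiz, which encodes the nuclear protein IκBζ, and Tnfaip3, which encodes the ubiquitin editor A20. They were picked by gene name from a table of 55487 genes, by a rule that uses no measured value but was written with earlier results of these data known, and all 10 passed the filter on low counts, as did 16915 of all genes.

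Discs of 14 male mice were sequenced, and the RNA of each mouse came from a pool of 5 discs. The leptin receptor cohort held 3 db/db mice, which lack functional leptin receptor, and 3 heterozygous db/+ controls, all 3 months old. The other cohort was C57BL/6J and held 4 STZ-HFD mice and 4 Con+Veh mice (vehicle on standard chow, called wild type in the labels), 12 weeks old at the start. STZ-HFD mice ate a high-fat diet for 4 to 6 weeks, received 1 dose of streptozotocin (STZ, a toxin of pancreatic β cells) at 100 mg/kg, and stayed on the diet for another 12 weeks. The labels give the diet as 80% of calories from fat and the methods as 60%. Loss of the leptin receptor affects every cell of the db/db mice, so an effect of diabetes and one of absent leptin signalling cannot be told apart in that model. STZ-HFD mice differ from Con+Veh mice in both diet and STZ, so effects of diet, STZ and diabetes cannot be told apart there. The cohorts differ in strain background and age, and no diet is recorded here for the leptin receptor cohort. Each diabetic group was therefore compared only with its own control.

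In resting cells the IκB proteins hold dimers of the subunits in the cytoplasm. A stimulus activates the IκB kinase complex, the inhibitor is phosphorylated and degraded, and the dimer moves to the nucleus. The processed forms of Nfkb1 and Nfkb2 (p50 and p52) pair with Rela, Rel or Relb, which carry the activation domains. Nfkbia, Nfkbie, Nfkb2, Rel, Relb, Nfkbiz and Tnfaip3 are themselves textbook targets of NF-κB, so their transcripts are often read as a sign of recent activity. In the disc, cytokines such as TNF and IL-1 are known to act through this system on matrix-degrading enzymes. Much of its control is exerted on the proteins, which transcript counts do not measure.

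The letters that NF-κB dimers bind were looked for in the promoters, because several of these genes are targets of the family. RefSeq promoter windows (GRCm38.p6, 250 bases before to 50 bases after a transcription start) were found for 7 of the 10 genes, and Nfkb1, Relb and Nfkbiz had none. The κB consensus, 10 bases long and searched on both strands with overlapping matches kept, was found for 5 of the 7 genes, against 9.55% of all 27025 genes with a window and 8.46% of 32851 windows. Nfkb2, Rel, Nfkbia, Nfkbie and Tnfaip3 held a match, and Rela and Nfkbib held none. A match is a run of letters and not a measured binding site. The matches closest to the start are shown with 10 bases on either side, on the strand of the gene, with the match in capitals. Nfkb2 lay at chr19:46304716-46304745 (plus strand), Rel at chr11:23771041-23771070 (minus strand), Nfkbia at chr12:55492657-55492686 (minus strand), Nfkbie at chr17:45555584-45555613 (plus strand) and Tnfaip3 at chr10:19015403-19015432 (minus strand).
Nfkb2: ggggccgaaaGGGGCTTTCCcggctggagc
Rel: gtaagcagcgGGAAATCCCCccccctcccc
Nfkbia: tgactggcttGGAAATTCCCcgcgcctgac
Nfkbie: gcagcaaacaGGGGGATTCCggaggggcgg
Tnfaip3: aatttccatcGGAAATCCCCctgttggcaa

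The libraries held 16076908 to 58943169 gene counts. Levels are given as CPM (gene counts scaled to a common library size with TMM factors). On the library totals without TMM factors, 3 counts corresponded to between 0.0509 and 0.187 CPM. That floor is on another scale than the levels and cannot be set against them directly. For example, 4 counts of Nfkbie in STZ-HFD replicate 3 were a level of 0.124 CPM. The fewest counts of a member in a library were 4 for Nfkbie and 5 for Tnfaip3. STZ-HFD replicate 1 stood apart, with the lowest depth and with counts on 42626 genes, against 25194 to 29924 in the other 13 libraries. Disc markers summed to between 4820 and 27300 CPM, with Acan and Col2a1 detected in every library. Of the same list, Shh had no counts in 8 libraries and Noto had none in 11. In STZ-HFD most of that sum was Car3, at 3320 to 7040 CPM. Acan was at 318 to 905 CPM there and Col2a1 at 110 to 188 CPM. The pooled tissue also held other cells, since skeletal muscle markers summed to between 7570 and 59400 CPM. In such bulk tissue, fewer cells of a type and less RNA per cell cannot be told apart.

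Transcripts of Nfkbia and Rela were the most abundant of the 10. On a scale of CPM per kilobase of exon, which allows levels of different genes to be compared, the median over 14 libraries was 14.5 for Nfkbia and 12.5 for Rela, the principal activating subunit. Both lay above the 92nd percentile of all genes tested, at percentiles 94.2 and 92.9. Nfkbia exceeded Rela in 10 of 14 libraries, so the order of these 2 was not fixed. Nfkbib followed at 5.51, and Rela exceeded it in 13 libraries. Nfkbiz had a median of 2.78 and Nfkb1 of 1.89, with Nfkbiz higher in 12 libraries. Nfkb1 exceeded Relb in all 14.

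The remaining genes were near or below the middle of the transcriptome. Relb (1.12 CPM per kilobase) and Rel (1.03), a subunit best known from lymphocytes, changed places between libraries, with Relb higher in 9 of 14. Nfkb2, the precursor of p52 in the non-canonical branch, had a median of 0.724. Nfkbie and Tnfaip3 were the lowest, at 0.386 and 0.278, and Nfkbie exceeded Tnfaip3 in 11 of 14 libraries. The classical subunit Rela was thus measured at higher levels per kilobase than the non-canonical pair of Nfkb2 and Relb in every group by its mean, which ranged from 9.21 to 16.8 for Rela, from 0.559 to 1.01 for Nfkb2 and from 1 to 1.32 for Relb.

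**Figure D1:**
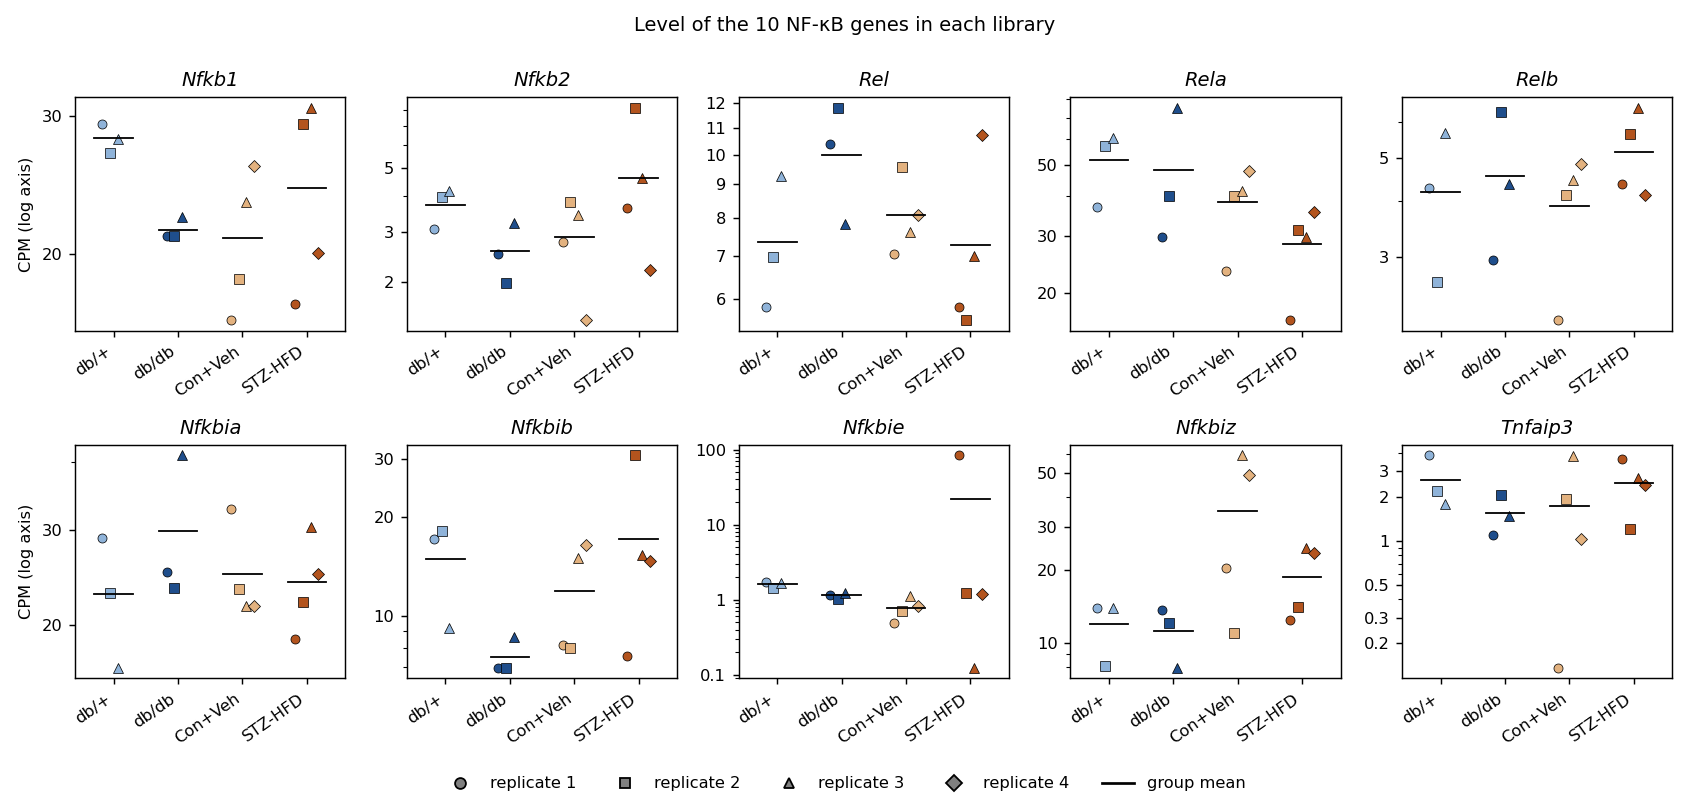
Level of each of the 10 NF-κB genes in the 14 libraries, as TMM-scaled CPM on a logarithmic axis that differs between panels; symbols give the replicate and black lines the group mean. The db/db libraries lie below all db/+ libraries for Nfkb1, Nfkbib and Nfkbie, whereas the STZ-HFD and Con+Veh libraries overlap for all 10 genes.

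The first comparison asked whether the disc of leptin receptor deficient mice differs from that of db/+ mice in these transcripts. None of the 10 genes passed the test in db/db (0 higher and 0 lower by limma at an adjusted p of 0.05 and a log2 fold change of at least 1). Of all 16915 genes tested, 1.23% were called higher and 0.432% lower. At an unadjusted p under 0.05, 1 of 10 genes was found by limma, by edgeR's quasi-likelihood test and by DESeq2 alike, against 21.1% of all genes in limma. Estimates were positive for 3 genes and negative for 7, with a median log2 difference of -0.27 over the 10 and of -0.04 over all genes. The 95% intervals of 6 genes lay within a 2-fold change in either direction, and those of the other 4 did not exclude one.

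Nfkbib had the largest difference in db/db. Its product IκBβ retains NF-κB in the cytoplasm and is degraded more slowly than IκBα. The level was 6.96, 6.96 and 8.66 CPM in db/db and 17.2, 18.2 and 9.23 CPM in db/+. All db/db libraries were below all db/+ libraries, although db/+ replicate 3 was close to them. Nfkbib differed by -0.96 on the log2 scale with a standard error of 0.33 and a 95% interval of -1.66 to -0.27, and the adjusted p by limma was 0.115. Over all alternatives run, the adjusted p ranged from 0.00479 to 0.444. The difference moved with GC content. Nfkbib is 59.8% GC, the 845 genes of similar GC content (1 of 20 bins) had a median log2 difference of -0.50, and after the GC trend was removed Nfkbib was at -0.47 (adjusted p = 0.444, limma).

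Nfkb1 was the most even of the 10 genes within the leptin receptor cohort. It encodes p105, which is both the precursor of p50 and an inhibitor in its own right. The level was 21.1, 21.1 and 22.3 CPM in db/db and 29.3, 26.9 and 28.0 CPM in db/+. The groups did not overlap and each varied by under 5% (coefficients of variation 3.35% and 4.4%). Nfkb1 differed by -0.38 with a standard error of 0.21 and an adjusted p of 0.311 by limma, a fold of 0.769. It remained at -0.31 without the GC trend. Leaving out any of the 14 libraries gave values from -0.41 to -0.33.

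Nfkbie was the third gene whose groups did not overlap. IκBε is a slower feedback inhibitor of Rela and Rel dimers. Its level was 1.16, 1.02 and 1.24 CPM in db/db and 1.74, 1.44 and 1.65 CPM in db/+, from 71 to 106 counts per library. Nfkbie differed by -0.49 with a standard error of 0.61 (adjusted p = 0.688, limma). That standard error is shared with the other cohort, where 1 library was aberrant for this gene, and it was 0.42 in a fit without that library. In all, the groups failed to overlap for 3 of the 10 genes, against 25.8% of all genes. In these 3 db/db was lower, against 11.7% of all genes, and it was higher in 0 of 10, against 14.1%.

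Rela and Nfkbia varied more within groups than between them. Rela ranged from 29.7 to 75.3 CPM in db/db and from 36.9 to 60.7 CPM in db/+, with a log2 difference of -0.16 (standard error 0.31) that turned to 0.26 once the GC trend was removed. Nfkbia was 25.1, 23.4 and 41.1 CPM in db/db and 28.9, 22.9 and 16.7 CPM in db/+. Its highest library was db/db replicate 3 and its lowest db/+ replicate 3, and the rest overlapped. The log2 difference was 0.36 (95% interval -0.16 to 0.88) with an adjusted p of 0.418 by limma.

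Rel, at 10.4, 11.8 and 7.82 CPM in db/db and 5.83, 6.96 and 9.28 CPM in db/+, had the largest positive estimate before GC content was considered. Its log2 difference was 0.46 with a standard error of 0.25 and an adjusted p of 0.299 by limma. Rel is the most AT-rich of the 10 genes, at 42.5% GC, and its estimate was 0.14 without the GC trend. That removal raised Relb to 0.59 and Nfkbia to 0.58 (adjusted p = 0.42 and 0.281, limma), both then above Rel. Across 16899 genes, the db/db log2 difference fell as GC content rose (Spearman's rho -0.428, a description over genes that share libraries), and over the 10 genes rho was -0.43.

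For Nfkb2, Relb, Nfkbiz and Tnfaip3 the db/db and db/+ libraries overlapped. Nfkb2 had a log2 difference of -0.57 (standard error 0.37), which was -0.15 without the GC trend. That of Relb was 0.18 (standard error 0.33) and that of Nfkbiz -0.05 (standard error 0.42). Tnfaip3, whose product A20 removes the ubiquitin chains that activate the IκB kinase, was 1.10, 2.08 and 1.48 CPM in db/db and 3.86, 2.21 and 1.79 CPM in db/+, and its log2 difference of -0.68 carried a standard error of 0.53.

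**Figure D2:**
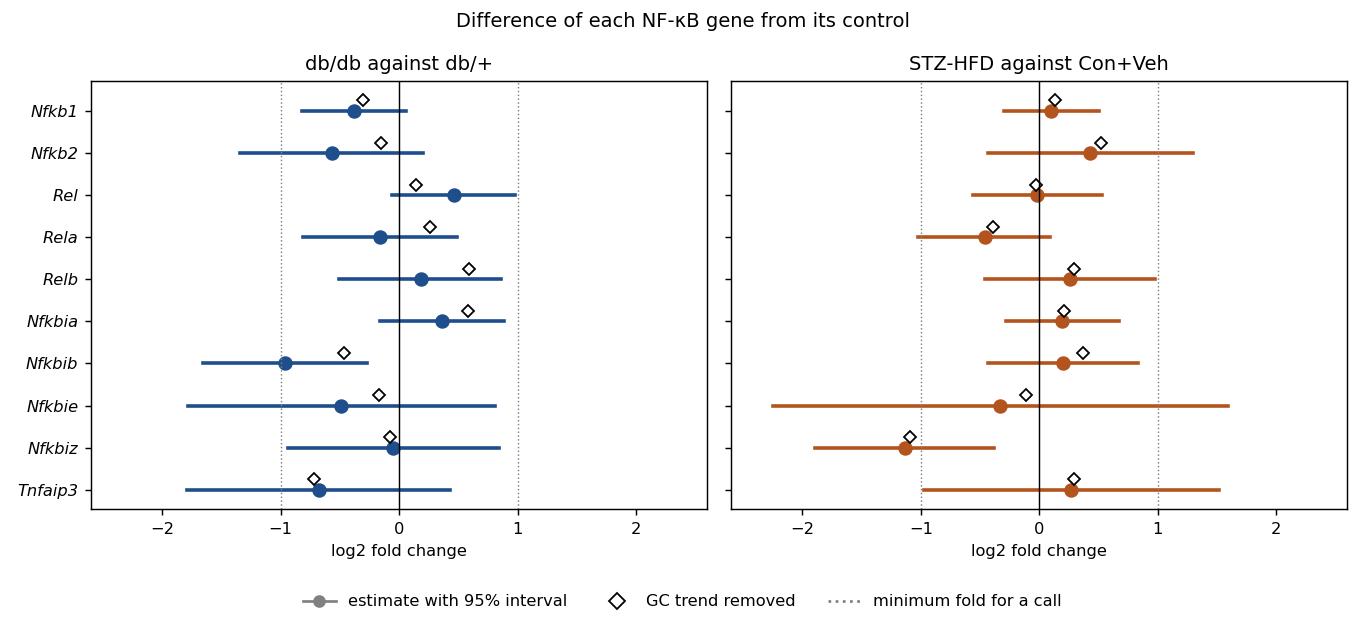
Estimated log2 fold change of each gene against its own control with its 95% interval (limma); open diamonds give the estimate after the trend with GC content was removed, and dotted lines mark the minimum fold for a call. The 2 intervals that exclude 0 are those of Nfkbib in db/db (-1.66 to -0.27) and Nfkbiz in STZ-HFD (-1.89 to -0.38).

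The second comparison asked the same of STZ-HFD and Con+Veh discs. Again none of the 10 genes passed the test (0 higher, 0 lower), against 1.3% of all genes called higher and 1.31% lower. At an unadjusted p under 0.05, limma found 1 of 10 genes, edgeR 2 and DESeq2 1, against 17.9% of all genes in limma. Estimates were positive for 6 genes and negative for 4, with a median log2 difference of 0.15 over the 10 and of -0.04 over all genes. The libraries of both groups overlapped for all 10 genes, and groups failed to overlap for 4.74% of all genes.

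Nfkbiz had the largest difference in STZ-HFD. IκBζ is a nuclear member of the IκB family that is induced by IL-1 and Toll-like receptor signals and is needed for a second wave of targets. Its level was 12.5, 14.1, 24.7 and 23.5 CPM in STZ-HFD and 20.3, 11, 59.1 and 49.1 CPM in Con+Veh. Con+Veh replicates 3 and 4 were higher than all other libraries of the study, and Con+Veh replicates 1 and 2 fell inside the range of STZ-HFD or below it. The log2 difference was -1.13 with a standard error of 0.36 and a 95% interval of -1.89 to -0.38, and the adjusted p by limma was 0.0905. In db/db and db/+ the gene stayed between 7.93 and 14 CPM.

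The Nfkbiz estimate rested on those 2 libraries. The fit gave them the weights 3.05 and 1.81, against 0.27 and 0.46 for Con+Veh replicates 1 and 2. Without Con+Veh replicate 3 the log2 difference was -0.56 (adjusted p = 0.786, limma) and without Con+Veh replicate 4 it was -0.87 (adjusted p = 0.456). Without Con+Veh replicate 2 it was -1.29 with an adjusted p of 0.0141, which passed the test. It was -0.61 (adjusted p = 0.65) when libraries were not weighted. Over all alternatives run, the adjusted p ranged from 0.00587 to 0.786.

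Other measurements moved with Nfkbiz in the same 2 libraries. Endothelial markers summed to 925 and 968 CPM in Con+Veh replicates 3 and 4 and to 259 and 278 CPM in replicates 1 and 2. Within that list Kdr ranged from 12.1 to 649 CPM in Con+Veh, Pecam1 from 71.2 to 119 CPM and Cdh5 from 51.8 to 98.1 CPM. Much of the 2 high sums was thus Kdr. Macrophage markers summed to 358 and 268 CPM against 227 and 183 CPM, and muscle markers to 17700 and 22200 CPM against 40900 and 31500 CPM. Of the muscle markers, Ttn ranged from 9400 to 30300 CPM in Con+Veh, Acta1 from 1510 to 2980 CPM and Myh1 from 2020 to 3270 CPM. Over all groups the endothelial sum ranged from 195 to 368 CPM in the leptin receptor cohort and from 242 to 554 CPM in STZ-HFD. The part of these cells in the Nfkbiz difference was not tested.

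The estimated transcript counts gave another picture of Nfkbiz. Across protein-coding genes with every listed transcript in the table, the transcript total was 22.2% to 34.2% of the gene count in the median. For Nfkbiz, of which 5 of 6 listed transcripts were used, it was 36.7% and 33.8% in Con+Veh replicates 1 and 2 but 8.2% and 7.3% in replicates 3 and 4. In STZ-HFD it was 12.2%, 26.1%, 12.9% and 16.1%, and in the leptin receptor cohort 27.7% to 39.1%. The libraries with the most Nfkbiz gene counts were thus not those with the most counts of the 5 transcripts used. From these totals the log2 difference was -0.41 (adjusted p = 0.694, limma). The transcript not used was the first-numbered one. Whether it holds the remaining reads of Con+Veh replicates 3 and 4 was not tested.

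**Figure D3:**
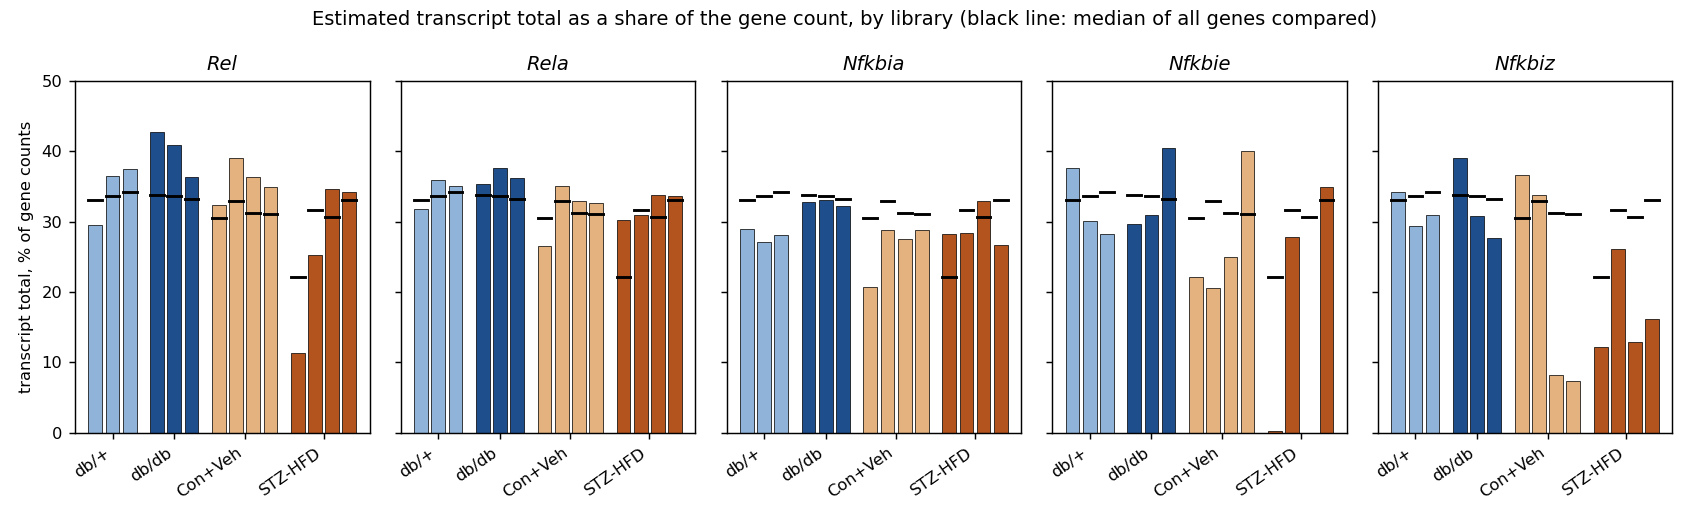
Estimated transcript total as a percentage of the gene count in each of the 14 libraries, for 4 genes with all listed transcripts used and for Nfkbiz; bars are libraries in replicate order and black lines the median over all protein-coding genes compared. Nfkbie in STZ-HFD replicate 1 is at 0.2% and Nfkbiz in Con+Veh replicates 3 and 4 at 8.2% and 7.3%, below the medians of 22.2%, 31.2% and 31.1%.

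Nfkbie showed the widest spread of any group. It had 18, 34, 24 and 15 gene counts in Con+Veh and 2039, 36, 4 and 40 in STZ-HFD, which is 83.8 CPM in STZ-HFD replicate 1 and 0.124 to 1.24 CPM in the other 3 replicates. STZ-HFD replicate 1 alone was high and STZ-HFD replicate 3 was close to the limit of detection. The transcript table, in which all 3 listed transcripts were used, held a total of 5 for Nfkbie in STZ-HFD replicate 1, or 0.2% of its gene count. The weighted log2 difference was -0.33 with a standard error of 0.91 (adjusted p = 0.89, limma). edgeR, fitted without library weights, gave 4.8, and limma without STZ-HFD replicate 1 gave -1.08 (adjusted p = 0.452).

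Of the 5 subunits, none passed the test in STZ-HFD. Rela was 16.4, 31.4, 29.9 and 35.6 CPM in STZ-HFD and 23.4, 39.9, 41.5 and 47.8 CPM in Con+Veh. The groups overlapped, since Con+Veh replicate 1 fell inside the range of STZ-HFD. The log2 difference was -0.46 with a standard error of 0.26, a 95% interval of -1.02 to 0.09 and an adjusted p of 0.381 by limma. Nfkb1 differed by 0.10 (95% interval -0.30 to 0.50), Rel by -0.02 (-0.56 to 0.53) and Relb by 0.26 (-0.46 to 0.98), so that a 2-fold change lay outside the interval of each of these 3.

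Nfkb2 was 3.62, 8.12, 4.60 and 2.20 CPM in STZ-HFD and 2.77, 3.82, 3.43 and 1.47 CPM in Con+Veh. STZ-HFD replicate 2 was the highest and the other libraries overlapped. Its log2 difference was 0.43 (standard error 0.41, 95% interval -0.43 to 1.3), and without STZ-HFD replicate 4 it was 0.98 (adjusted p = 0.257, limma).

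The inhibitors Nfkbia and Nfkbib did not stand apart. Nfkbia was 18.9 to 30.3 CPM in STZ-HFD and 21.7 to 32.7 CPM in Con+Veh, and the log2 difference of 0.19 had an interval of -0.28 to 0.67. Nfkbib was 7.56, 30.9, 15.4 and 14.7 CPM in STZ-HFD and 8.18, 8, 15.0 and 16.5 CPM in Con+Veh, with a log2 difference of 0.20 (standard error 0.30). Tnfaip3 ranged from 0.136 to 3.81 CPM in Con+Veh, where replicate 1 had only 5 counts, and from 1.20 to 3.62 CPM in STZ-HFD. Its log2 difference of 0.27 had an interval of -0.97 to 1.52, in this comparison the widest of the 10 genes after that of Nfkbie.

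The third comparison asked whether the 2 models differ in their response. The difference of the log2 fold changes (db/db response minus STZ-HFD response) passed the test for 0 of the 10 genes, against 1.77% of all genes. At an unadjusted p under 0.05, limma found 1 of 10 genes, edgeR 2 and DESeq2 1, against 17.3% of all genes in limma. Nfkbib had the largest difference at -1.16 (standard error 0.44, 95% interval -2.10 to -0.23, adjusted p = 0.183, limma). Nfkbiz was at 1.09 (standard error 0.55, adjusted p = 0.329) and Nfkb2 at -1 (standard error 0.55, adjusted p = 0.372). Without Con+Veh replicate 3 the value of Nfkbiz was 0.52 (adjusted p = 0.758), and without STZ-HFD replicate 4 that of Nfkb2 was -1.55 (adjusted p = 0.142). For 9 of the 10 genes the interval reached a 2-fold difference in at least 1 direction.

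Genes around the 10 were read from 7 lists of the pathway with 110 genes in all (other IκB family members, kinases, adaptors, ubiquitin editors, receptors, ligands and targets), of which 82 passed the filter on low counts. In db/db, 0 of 82 were called in either direction, against 1.23% of all genes called higher and 0.432% lower. Their median log2 difference was 0.07, against -0.04 over all genes. In STZ-HFD, 0 were called higher and 1 lower, against 1.3% of all genes called higher and 1.31% lower. The median there was -0.24, against -0.04 over all genes. The 1 call is thus near the share of all genes. By an unadjusted p under 0.05 from limma, 11 of 82 were higher and 8 lower in db/db, beside 21.1% of all genes in either direction. In STZ-HFD 3 were higher and 8 lower, beside 17.9% of all genes.

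The 1 pathway gene that passed was Il33, an alarmin of the IL-1 family that is held in the nucleus of barrier and stromal cells and signals through Il1rl1. It fell in STZ-HFD, from 3.21, 5.13, 9.35 and 12.2 CPM in Con+Veh to 1.97, 0.688, 1.37 and 0.892 CPM. All STZ-HFD libraries were below all Con+Veh libraries, and the 2 highest were Con+Veh replicates 3 and 4. Endothelial markers summed to 925 and 968 CPM in these 2 libraries (259 and 278 CPM in replicates 1 and 2). Much of the 2 high sums was Kdr, which ranged from 12.1 to 649 CPM in Con+Veh. The part of endothelial cells in the Il33 difference was not tested. The estimate was -3.03 on the log2 scale, with a standard error of 0.53 (adjusted p = 0.00793, limma). The call was lost without library weights (-2.41, adjusted p = 0.128), from transcript totals (-2.57, adjusted p = 0.103) and when any 1 of Con+Veh replicate 3, Con+Veh replicate 4, STZ-HFD replicate 3 or STZ-HFD replicate 4 was left out (estimates between -3.22 and -2.71). Over all alternatives run, the adjusted p ranged from 5e-06 to 0.128. In db/db the log2 difference of Il33 was 0.51 (adjusted p = 0.389).

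Among the kinases, 0 of 16 were called in either model. Irak3, an inactive kinase that restrains Toll-like receptor and IL-1 signalling, was 9.29 to 23.3 CPM in STZ-HFD and 21.2 to 39.1 CPM in Con+Veh, with a log2 difference of -0.93 (standard error 0.23). Its adjusted p was 0.032 by limma, and the difference was below the minimum fold. Tab1, a partner of the kinase TAK1, was at -0.80 in db/db (adjusted p = 0.157).

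The adaptors and ubiquitin ligases gave 0 calls of 15. Traf5 was at -0.92 in db/db (adjusted p = 0.112) and Birc3, which encodes the ubiquitin ligase cIAP2, at -0.71 in STZ-HFD (adjusted p = 0.119). The ubiquitin editors that act beside A20 gave 0 calls of 11. Tax1bp1, which brings A20 to its substrates, was 57.8, 42.7 and 45.4 CPM in db/db and 28.6, 24.6 and 23.7 CPM in db/+. The groups did not overlap, the log2 difference was 0.91 (standard error 0.19, adjusted p = 0.0297, limma), and the minimum fold was not reached. Over the alternatives run the estimate was 0.45 (transcript totals) to 1.01, with an adjusted p of 0.00174 to 0.473, and it passed only without db/+ replicate 1. Cyld, a deubiquitinase of the same pathway, was at 0.93 in STZ-HFD (adjusted p = 0.0892), from 17.6 to 47.1 CPM against 12.8 to 50.5 CPM in Con+Veh. Its alternatives ran from 0.42 (edgeR) to 1.17, with an adjusted p of 0.0143 to 0.673, and it passed in the replicate block and without Con+Veh replicate 2 or STZ-HFD replicate 2.

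The receptors gave 0 calls of 16. Il1rap, the shared co-receptor of the IL-1 family, was 3.34, 6.90, 108 and 141 CPM in Con+Veh and 8.76, 6.09, 7.27 and 35.6 CPM in STZ-HFD. Its 2 high libraries were those in which Nfkbiz was also high. The estimate was -2.6 on the log2 scale, with a standard error of 0.71 and an adjusted p of 0.0538 by limma. Tnfrsf11a, which encodes the osteoclast receptor RANK, was at 0.85 in db/db (adjusted p = 0.0875).

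Of 12 ligands, 5 passed the filter on low counts, and Tnf, Il1a and Il1b were not among them. Tnfsf13b, the B-cell factor BAFF, was at 1.01 in db/db (adjusted p = 0.128). Of 35 textbook target genes 18 were tested and 0 were called. Their median log2 difference was 0.32 in db/db, where 11 estimates were positive and 7 negative, and -0.50 in STZ-HFD, where 5 were positive and 13 negative. Serpina3n, an acute phase serpin, was 35.7, 52.7 and 33.6 CPM in db/db and 10.3, 26.5 and 6.47 CPM in db/+, with a log2 difference of 1.64 (adjusted p = 0.0541, limma). Csf1, the macrophage growth factor, was at -0.83 in STZ-HFD (adjusted p = 0.0871). Bcl3, another nuclear IκB protein and the only 1 of the 3 listed other family members that was tested, was at -0.52 in db/db (adjusted p = 0.611) and at -0.61 in STZ-HFD (adjusted p = 0.62).

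**Figure D4:**
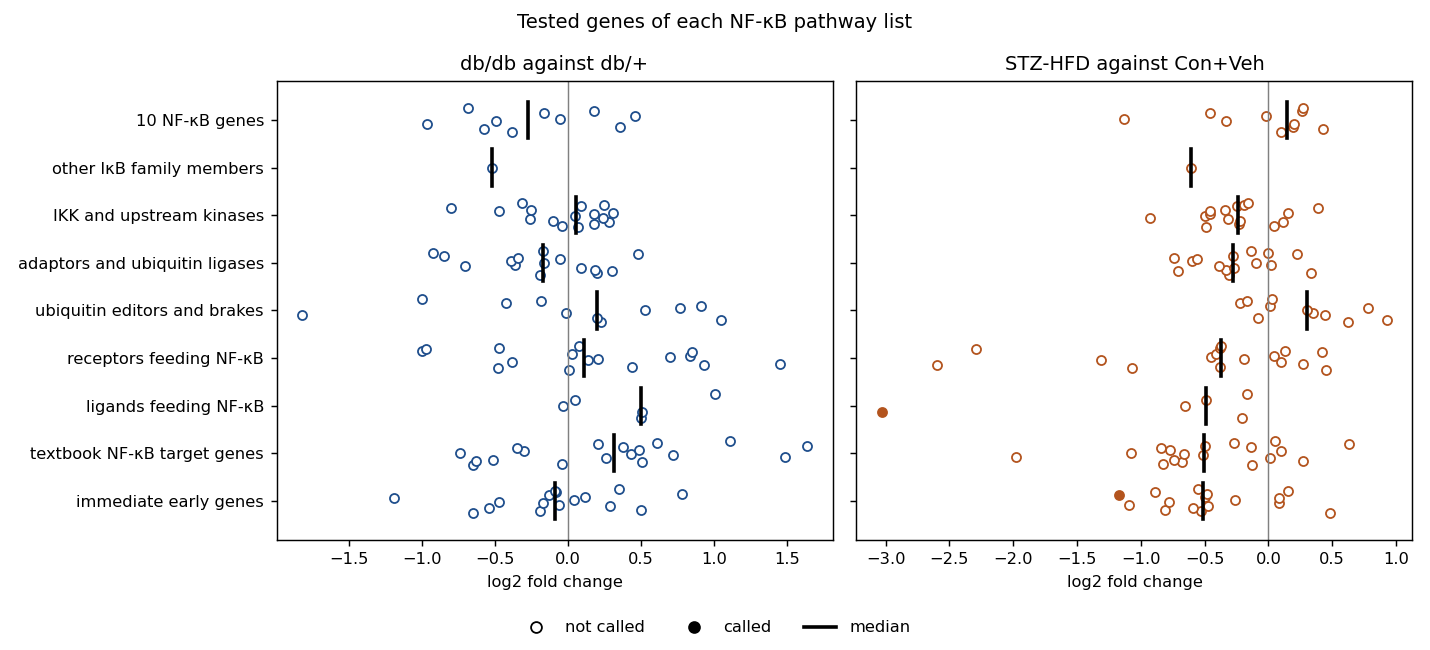
Log2 fold change of each tested gene of the NF-κB system in db/db (left) and STZ-HFD (right), by list; filled points were called and black bars are list medians. The filled points in STZ-HFD are Il33 at -3.03 and, among the immediate early genes, Klf4 at -1.17.

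Immediate early genes, which respond to handling of tissue as well as to signals, gave 0 calls of 16 in db/db and 1 lower in STZ-HFD (Klf4, log2 difference -1.17, adjusted p = 0.013 by limma and 0.228 by edgeR). Their summed level was 501 to 634 CPM in db/db and 416 to 605 CPM in db/+, and 247 to 394 CPM in STZ-HFD and 347 to 569 CPM in Con+Veh. Of 12 macrophage markers, 0 were higher and 12 lower in STZ-HFD, and 4 were called lower. Their summed level was 130 to 227 CPM in STZ-HFD and 183 to 358 CPM in Con+Veh. Disc cell markers were called lower for 6 of 12 tested genes in STZ-HFD (Sox9, Prg4, Col2a1, Acan, Comp and Fmod; median log2 difference -1.37) and for 0 of 12 in db/db (median -0.67). Skeletal muscle markers were called higher for 5 of 12 genes in STZ-HFD (median 1.11) and lower for 1 of 12 in db/db (median -0.97). Adipocyte markers were called higher for 4 of 10 genes in db/db (median 1.34) and 1 of 10 in STZ-HFD (median 0.64). Of all genes tested, 1.23% were called higher and 0.432% lower in db/db, and 1.3% higher and 1.31% lower in STZ-HFD. Bone cell markers summed to 772 to 905 CPM in db/db and 1300 to 1790 CPM in db/+, with 0 of 10 called. The part of these cells and of handling in the levels of the 10 NF-κB genes was not tested.

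Genes whose log2 CPM followed a member most closely over the 14 libraries were sought for the main precursor, inhibitor and inducible gene. For Nfkb1 they were Vgll4, Dnajc16 and Pusl1 (Pearson's r 0.939, 0.897 and 0.873). For Nfkbia they were Rrs1, Cry1 and Cavin1 (0.811, 0.808 and 0.762), and for Nfkbiz they were Pcf11, Evi2a and Zfp949 (0.926, 0.92 and 0.911). These values, with no test, describe libraries that differ in group, cohort and depth, and none of the 9 genes belongs to the pathway lists.

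The position of some genes limits what the counts can say, since use of strand in counting was not given in the sources used here. Nfkbib (chr7:28758251-28767512, minus strand) shares exonic sequence with Sirt2 on the opposite strand, which had 48141 counts over the 14 libraries, and with Ccer2. Nfkb2 (chr19:46304320-46312385, plus strand) shares exonic sequence with Psd and AC114539.1. If strand was not used, reads from these overlaps could not be assigned to 1 gene. Nfkb1 (chr3:135584655-135691547, minus strand) holds Gm43430 within an intron, with no exon in common.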

How the data were processed

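The study sequenced amplified total RNA of pooled caudal discs. The authors aligned reads to GRCm38 with STAR and deposited gene counts from Subread featureCounts, unnormalized whole numbers, and estimated counts per transcript from Salmon. All 14 libraries were grouped by the labels. The gene table held 55774 lines, of which 287 repeated an identifier with identical values and were used once. Positions, exon lengths and GC content came from GENCODE M21 (GRCm38), which covered 55141 genes.

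Computed here from the deposited gene counts, the filter demanded more than 1 CPM in 3 or more libraries. R 4.3.3 with edgeR 4.0.16 (TMM), limma 3.58.1 (voomWithQualityWeights, the method of the study) and DESeq2 1.42.0 was used. All libraries entered one fit with 4 group means, and p-values were adjusted by Benjamini-Hochberg over all 16915 genes. Calls needed both an adjusted p below 0.05 and a log2 fold change of 1 or more in either direction. The fits were also run on simulated counts with known answers, which held no GC trend and no aberrant library. That run checks the code and does not bear on the calls made here. The estimated transcript counts were summed per gene and rounded for 1 alternative; the transcripts used here were complete for Rel, Rela, Nfkbia and Nfkbie. Replicates are separate mice. Library pairs of 1 group differed beyond sampling noise (chi-square per degree of freedom at least 47.2).

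The 10 genes and the lists were chosen with earlier results of these data known. Named from each list were the called genes (at most 5 per comparison) or, with none, the gene of smallest p. For Nfkb1, Nfkbia and Nfkbiz the 3 genes with the highest Pearson correlation of log2 CPM (prior count 2) were named. Klf4 and the marker lists describe the tissue. Depth was 16076908 to 58943169 counts with ribosomal RNA included. Floors at 3 counts were taken on these totals without TMM factors and cover counting error only. Alternatives changed the test, weights, normalization, filter, samples, block, GC trend (20 bins) and features.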

Additional observations from a re-analysis of the deposited data

Results flagged for a closer look

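In groups of 4 mice, 20 sets of values (10 genes in 2 groups) were examined for a library far from the others, and chance gives about 1 in 20. A library stood apart in 2 of them. Nfkbie in STZ-HFD replicate 1, at 83.8 CPM, lay apart from the other 3 libraries (0.124 to 1.24 CPM) by 0.987 of the range of the group. Nfkbia in Con+Veh replicate 1, at 32.7 CPM, lay apart from 23.3, 21.7 and 21.7 CPM by 0.857 of the range. Both shares exceed the 95% critical value of Dixon's test for 4 samples. Without Con+Veh replicate 1 the log2 difference of Nfkbia in STZ-HFD was 0.23, against 0.19 with it.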

How the results depend on the processing

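Among the alternatives run, the replicate block was the only one to call a member in db/db, and none called a member higher in either model. In STZ-HFD, Nfkbiz was called lower (1 of 10 genes) in the replicate block and without both libraries whose names share an ending (-1.48, adjusted p = 0.044, limma). Leaving out 1 library gave 0 to 1 members lower in STZ-HFD (Nfkbiz, without Con+Veh replicate 2) and 0 in the other counts of members.

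The labels number the replicates and state no pairing of mice between groups. Same-numbered libraries had a mean correlation of deviations of -0.0911 in the leptin receptor cohort (3 pairs) and -0.111 in the other (4 pairs). So few pairs cannot decide whether mice were paired. With the replicate block, 2 members were called lower in db/db (Nfkbib -1.05, Tnfaip3 -1.12), 1 lower in STZ-HFD (Nfkbiz -1.02) and 1 in the difference of responses (Nfkbib -1.19). Pathway genes called were then 4 higher and 3 lower in db/db and 1 higher and 3 lower in STZ-HFD. The block turned Relb in db/db (-0.12), Rel (0.02) and Nfkbie (2.77) in STZ-HFD and Nfkbia in the difference (-0.02). Over all genes it called 796 higher and 688 lower in db/db. With the block and the GC trend removed, 2 pathway genes were higher in db/db and 3 lower in STZ-HFD, Rela in db/db was at 0.22 and Nfkbie in STZ-HFD at 2.73.

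Pathway genes called lower in STZ-HFD numbered 2 by DESeq2, 0 without library weights, 0 from transcript totals, 3 without the 2 libraries and 2 with no minimum fold. Those called higher in db/db numbered 1 with RLE size factors, with each model fitted alone, without the 2 libraries and with no minimum fold. Leaving out 1 library gave 0 to 2 higher in db/db, 0 to 1 higher in STZ-HFD and 0 to 4 lower in STZ-HFD; Il33 lost its call without Con+Veh replicate 3 or 4 or STZ-HFD replicate 3 or 4.

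Signs turned mostly for estimates near 0. In STZ-HFD, Nfkbia was -0.05 by edgeR, -0.04 by DESeq2 and -0.05 without weights, Nfkbie 4.8, 4.83 and 1.2, and Rel 0.01 with RLE and with each model alone. With no filter, Nfkbiz in db/db was 0.04 and Nfkbie in the difference 0.26. With the GC trend removed, Rela in db/db was 0.26 and Relb in the difference 0.3. Transcript totals gave no value for Nfkbib and lacked the first-numbered transcript of Nfkb1, Nfkb2, Relb and Nfkbiz. These totals turned Nfkbiz in db/db (0.01). In STZ-HFD they turned Nfkb1 (-1.06), Nfkb2 (-0.29), Relb (-0.29), Irak3 (2.95) and Il1rap (1.03). In the difference they turned Nfkb1 (0.44), Relb (0.52) and Nfkbie (0.4).

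Single omitted libraries turned the sign, with ranges in db/db for Rela (-0.54 to 0.13), Relb (-0.19 to 0.45), Nfkbiz (-0.35 to 0.18) and Bcl3 (-0.86 to 0.02). In STZ-HFD they were for Tnfaip3 (-0.1 to 1.36), Rel (-0.33 to 0.14), Nfkbie (-1.08 to 1.29), Nfkb1 (-0.07 to 0.26) and Bcl3 (-1.04 to 0.17), and in the difference for Relb (-0.45 to 0.19), Rela (-0.08 to 0.59), Nfkbia (-0.09 to 0.39) and Nfkbie (-1.77 to 0.58). The cause of these changes was not tested. Over all genes, edgeR called 0 in db/db and DESeq2 158 higher and 53 lower. Depth limits Nfkbie and Tnfaip3, with as few as 4 and 5 counts.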

Other observations

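Several transcripts of these genes were listed at 0 in every library of a group, among them 1 of Tnfaip3 and 1 of Nfkb1. Tnfaip3-202, a protein-coding transcript of A20, was listed at 0 in all 4 Con+Veh libraries and at 6.0, 5.0, 18.6 and 22.2 estimated counts in STZ-HFD, and in the leptin receptor cohort only db/+ replicate 3 was above 0, at 26.6. Nfkb1-206 was listed at 0 in all 4 STZ-HFD libraries and at 67.1, 0, 43.0 and 116.0 in Con+Veh. In the leptin receptor cohort it was 77.3, 72.8 and 0 in db/db and 191.8, 209.1 and 0 in db/+. These transcripts were chosen after their values were seen, and an exact 0 can be a failed estimate. The first-numbered transcript of each gene was not used here, which left out 1 of 6 for Tnfaip3 and 1 of 10 for Nfkb1. Totals of the transcripts used thus cover only part of each gene, and the share of the missing transcripts was not tested. In Con+Veh the Tnfaip3 totals were 1.0, 1.3, 0.0 and 3.0, beside 5, 93, 81 and 19 gene counts. In STZ-HFD the totals gave log2 differences of 3.93 for Tnfaip3 (adjusted p = 0.0651, limma) and of -1.06 for Nfkb1 (adjusted p = 0.122). Gene counts gave 0.27 and 0.10.

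Cyld, chosen here after its values were seen, was 40.4, 39.4 and 39.8 CPM in db/db and 18.6, 17.6 and 22.7 CPM in db/+, with a log2 difference of 1.05 (adjusted p = 0.0892, limma).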
